A study of Mus musculus with 2 samples.

Results

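The genes measured were 10 marks of arterial or venous identity of the endothelium, chosen by name from the 18323 gene rows that the count tables of both embryonic stages hold. The arterial list was Gja4, Gja5, Efnb2, Unc5b and Sox17, and the venous list was Nr2f2, Ephb4, Aplnr, Flrt2 and Slc7a7. All 10 had counts on both chips. The cells came from wild-type C57Bl/6 mouse embryos at E11.5 and E9.5, from the aorta-gonad-mesonephros region (AGM), where the dorsal aorta forms blood stem cells, and from the yolk sac (YS), the first site of blood formation. Live single cells were sorted by flow cytometry with an antibody to VE-cadherin, the endothelial adhesion protein encoded by Cdh5, into a positive gate, which the study calls endothelial, and a negative gate, which it calls the microenvironment. Cells were dispensed into the wells of an ICELL8 nanowell chip, with 1 chip for E11.5 and 1 for E9.5, so that stage and chip cannot be told apart. Each combination of stage, tissue and gate is thus 1 pool of wells with no replicate: the number of embryos behind a pool is not given in the sources used here, no test across samples was possible, and the intervals below cover counting error only.

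Endothelial cells of arteries and veins differ before and after blood flow begins. Notch signalling and SOXF transcription factors are known for driving the arterial programme, and the nuclear receptor NR2F2 (COUP-TFII) for holding Notch down in veins. Ephrin-B2 on arterial and its receptor EphB4 on venous endothelium face each other at the boundary between the vessel types. Several of these genes are also used outside the endothelium, by mesenchyme, neural tissue or macrophages.

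Wells with 500 or more genes were kept, 2644 in all. In the positive pools these were 287 wells (AGM) and 357 wells (YS) at E11.5, and 299 and 325 wells at E9.5. The negative pools had 338 and 379 wells at E11.5, and 354 and 305 wells at E9.5. Pool totals ran from 850258 counts in the E11.5 AGM positive pool to 3862642 counts in the E9.5 YS negative pool, and median counts per well from 2532 to 12452 in the same pools. Levels are given as CPM, the counts of a gene scaled to a pool total of 1000000, with an exact 95% Poisson interval. Shares of wells are given after thinning at random to 2000 counts, in 1 draw unless stated, which left out wells with fewer counts. At E11.5 these were 77 and 22 wells in the AGM and YS positive pools, and 87 and 15 wells in the negative pools. At E9.5 they were 3 and 6 wells in the positive pools, and 0 and 1 in the negative pools. Thinned shares in the E11.5 AGM thus rest on the deeper wells. As a check of the gate, 12 endothelial marker genes, Cdh5 among them and no member, summed to 1729 and 1213 CPM in the E11.5 AGM and YS positive pools and to 1805 and 2142 CPM at E9.5, against 39.4 to 71.8 CPM in the 4 negative pools. However, 3 or more of the 12 were seen in only 41.4% and 26.0% of the thinned E11.5 positive wells, against 52.4% and 63.3% at E9.5. Wells with 3 or more of 10 visceral endoderm markers were 91.6% (307 of 335) of the thinned E11.5 YS positive wells, where those markers summed to 8341 CPM. In the E11.5 YS negative wells the share was 58.5% (213 of 364). Wells with 3 or more of 12 erythroid markers were 100% of the thinned wells in every pool. Such shares count wells that hold the RNA, and the cell type of a well was not tested. Wells with 3 or more of 12 macrophage markers were 17.6% of the E11.5 AGM (37 of 210) and 10.8% of the E11.5 YS positive wells (36 of 335). Fewer endothelial wells in a pool and less RNA of a gene per endothelial cell cannot be told apart in a pool sum.

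Upstream sequences are shown for Gja4, whose pattern over the pools was closest to that of Sox17, for the ligand and receptor Efnb2 and Ephb4, and for Nr2f2, whose pattern over the pools was least like those of the others. The 250 bases before the RefSeq start site are given 5′ to 3′ (GRCm38.p6), in lower case, with capitals for the core ACAAT bound by SOX factors. The other letters searched on both strands were TGGGAA, a core of the Notch effector RBPJ, and AGGTCA, a nuclear receptor half-site; all 3 were chosen after the data had been seen.
Gja4, chr4:127314040-127314289, minus strand: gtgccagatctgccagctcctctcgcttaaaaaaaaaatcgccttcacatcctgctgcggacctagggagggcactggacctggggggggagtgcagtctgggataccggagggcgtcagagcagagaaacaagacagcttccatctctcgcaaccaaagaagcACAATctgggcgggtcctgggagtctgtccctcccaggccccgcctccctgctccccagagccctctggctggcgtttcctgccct
Efnb2, chr8:8661243-8661492, minus strand: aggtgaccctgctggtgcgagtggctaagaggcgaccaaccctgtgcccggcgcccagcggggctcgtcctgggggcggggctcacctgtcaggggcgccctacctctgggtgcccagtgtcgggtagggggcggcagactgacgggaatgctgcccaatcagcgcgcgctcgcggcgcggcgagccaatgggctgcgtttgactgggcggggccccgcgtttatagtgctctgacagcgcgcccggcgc
Ephb4, chr5:137349859-137350108, plus strand: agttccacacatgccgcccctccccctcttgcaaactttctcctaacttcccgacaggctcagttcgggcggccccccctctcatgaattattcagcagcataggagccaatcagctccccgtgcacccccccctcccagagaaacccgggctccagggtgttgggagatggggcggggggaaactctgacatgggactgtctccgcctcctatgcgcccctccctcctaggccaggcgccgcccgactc
Nr2f2, chr7:70366747-70366996, minus strand: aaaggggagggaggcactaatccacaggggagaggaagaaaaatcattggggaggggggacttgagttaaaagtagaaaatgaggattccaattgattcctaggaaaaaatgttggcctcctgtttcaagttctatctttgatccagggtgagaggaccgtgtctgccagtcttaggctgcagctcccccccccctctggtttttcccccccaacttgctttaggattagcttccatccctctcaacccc
Among 32536 mouse promoter windows of the same length, 27.4% held ACAAT, 21.6% TGGGAA and 14.0% AGGTCA on either strand. The Gja4 match began 86 bases before the start site. RefSeq windows were matched for 8 of the 10 genes, 12 windows in all, of which 5 were of Slc7a7. Beyond Gja4, 1 of the Slc7a7 windows held TGGGAA and another held AGGTCA. Such a match is a description of the letters and says nothing of whether a factor binds there. Sox17 and Aplnr were not in the promoter table.

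Gja4 (chromosome 4, 127311421-127314039, minus strand, GRCm38), the gap junction protein connexin 37 of arterial endothelium, was nearly confined to the positive pools. Its level was 20.0 CPM (11.7 to 32.0) in the E11.5 AGM positive pool and 14.7 CPM (8.69 to 23.2) in the E11.5 YS positive pool, against 0.914 and 1.23 CPM in their negative pools. At E9.5 it was 41.5 CPM (32.9 to 51.8) in the AGM and 39.1 CPM (29.3 to 51.0) in the YS positive pool, against 1.18 and 1.55 CPM in the negative pools. The negative pools rest on 1 to 6 counts each, and every positive pool stood above every negative one with intervals apart. In 1 random draw of thinned wells a Gja4 count was found in 3.33% and 2.09% of the E11.5 AGM and YS positive wells and in 5.41% and 8.46% of those at E9.5. Averaged over all possible draws, by exact calculation, the expected wells at E9.5 were 22.1 of 296 in the AGM and 23.2 of 319 in the YS. At E11.5 they were 7.09 of 210 and 7.74 of 335. The E9.5 tissue gap of the single draw was thus not seen in the average.

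Gja5 (chromosome 3, 96904693-97077416, plus strand), connexin 40, the other gap junction protein of arteries, was less tied to the gate. It stood at 25.9 CPM (16.2 to 39.2) and 39.1 CPM (28.8 to 51.9) in the E11.5 AGM and YS positive pools, against 5.49 and 10.4 CPM in the negative pools. At E9.5 the positive pools held 41.0 CPM (32.4 to 51.2) in the AGM and 62.9 CPM (50.4 to 77.6) in the YS, against 21.8 CPM (15.3 to 30.0) and 1.81 CPM in the negative pools. The E9.5 AGM negative pool thus came closest to its positive partner. Gja5 overlaps Gpr89 on the other strand over 165 of its 5746 exon bases, and whether the counting used strand is not given in the sources used here.

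Efnb2 (chromosome 8, 8617434-8661242, minus strand), the ephrin-B2 ligand, was held at a like level in all 4 positive pools: 63.5 CPM (47.7 to 82.9) in AGM and 49.7 CPM (38.0 to 63.9) in YS at E11.5, and 49.9 CPM (40.4 to 61.0) and 49.2 CPM (38.2 to 62.3) at E9.5. The negative pools held 55.8 CPM (42.7 to 71.7) and 9.20 CPM at E11.5 and 27.7 CPM (20.3 to 36.8) and 0.518 CPM at E9.5, in the same order of tissues. In the E11.5 AGM the 2 gates did not differ beyond counting error on pool totals (log2 ratio 0.19, -0.37 to 0.74). The median log2 ratio of all genes in that pair was -0.80, and Efnb2 stood 0.99 above it, so this reading depends on the scale. A single well gave 10 of the 61 counts of the E11.5 YS positive pool.

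Unc5b (chromosome 10, 60762593-60831581, minus strand), a netrin receptor that guides arterial and tip cell sprouting, was only weakly tied to the gate at E11.5. It stood at 24.7 CPM (15.3 to 37.8) and 16.3 CPM (9.95 to 25.2) in the E11.5 AGM and YS positive pools, against 10.97 and 13.5 CPM in the negative ones. At E9.5 the positive pools held 24.7 CPM (18.2 to 32.9) and 14.5 CPM (8.84 to 22.3), against 7.65 and 1.04 CPM. The intervals of the gates overlapped in both tissues at E11.5, though the ratio itself was above 0 in the AGM (1.17, 0.08 to 2.33), and were apart at E9.5.

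Sox17 (chromosome 1, 4490931-4497354, minus strand), the SOXF factor of arterial and blood-forming endothelium, followed the gate as Gja4 did. It was at 32.9 CPM (21.9 to 47.6) and 24.4 CPM (16.5 to 34.9) in the E11.5 AGM and YS positive pools, against 1.83 CPM in the AGM negative pool and no count in the YS negative pool. None of 364 thinned YS negative wells held it; a limit of 3 counts allows 0.824% of wells with a count at this depth, and the exact 95% upper bound was 1.01%. In the E9.5 positive pools it reached 44.2 CPM (35.2 to 54.7) in the AGM and 42.7 CPM (32.5 to 55.0) in the YS, against 1.77 and 0.259 CPM in the negative pools. Every positive pool lay above every negative one with intervals apart.

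Nr2f2 (chromosome 7, 70351944-70366735, minus strand), the nuclear receptor of venous identity, was the member least bound to the positive gate. It stood at 31.8 CPM (20.9 to 46.2) and 15.5 CPM (9.32 to 24.2) in the E11.5 AGM and YS positive pools, against 89.6 CPM (72.8 to 109) and 44.2 CPM (34.6 to 55.6) in the negative pools. At E9.5 the positive pools held 33.6 CPM (25.9 to 43.0) and 21.0 CPM (14.1 to 30.1), against 99.4 CPM (85.0 to 116) in the AGM and 4.66 CPM in the YS negative pool. It was thus lower in the positive gate in 3 of 4 pairs and higher in the E9.5 yolk sac. An Nr2f2 count was seen in 17.5% and 18.6% of the thinned AGM negative wells at E11.5 and E9.5, and at E11.5 the share was 16.8% of 131 wells with 3 or more mesenchymal markers and 18.3% of the other 120. Nr2f2 shares 643 of 8625 exon bases with the antisense gene B130024G19Rik.

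Ephb4 (chromosome 5, 137350109-137378669, plus strand), the receptor for ephrin-B2, showed a pattern over the pools like that of its ligand. Its level was 36.5 CPM (24.8 to 51.8) and 26.1 CPM (17.8 to 36.8) in the E11.5 AGM and YS positive pools, against 31.1 CPM (21.5 to 43.5) and 6.75 CPM in the negative pools. At E9.5 it was 53.6 CPM (43.7 to 65.1) and 37.6 CPM (28.1 to 49.3) in the positive pools, against 17.7 and 0.259 CPM in the negative ones. As with Efnb2, the gates were not apart in the E11.5 AGM on pool totals (log2 ratio 0.23, -0.52 to 0.98). The ratio stood 1.03 above the all-gene median of that pair, so this too depends on the scale. The tissue whose negative cells held the gene was the AGM at both stages.

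Aplnr (chromosome 2, 85136225-85139923, plus strand), the receptor for apelin, which marks veins and the sprouting plexus, was the gene whose gates lay farthest apart in the E11.5 AGM and the E9.5 yolk sac. It stood at 69.4 CPM (52.8 to 89.5) and 42.4 CPM (31.6 to 55.6) in the E11.5 AGM and YS positive pools, against 1.83 and 10.4 CPM in the negative pools. At E9.5 it was 97.2 CPM (83.7 to 112) and 106 CPM (89.8 to 125) in the positive pools, against 2.94 and 0.518 CPM. Thinned wells with an Aplnr count made up 11.4% and 6.87% of the E11.5 AGM and YS positive wells and 17.2% and 18.8% of those at E9.5, against at most 1.65% in any negative pool.

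Flrt2 (chromosome 12, 95692226-95785215, plus strand), an adhesion protein that binds UNC5 and latrophilin receptors, was highest in a negative pool. It was at 95.3 CPM (75.7 to 118) and 45.6 CPM (34.5 to 59.3) in the E11.5 AGM and YS positive pools, against 198 CPM (173 to 227) and 25.2 CPM (18.0 to 34.1) in the negative pools. At E9.5 the positive pools held 88.3 CPM (75.5 to 103) and 72.3 CPM (58.8 to 87.96), against 44.7 CPM (35.2 to 56.0) and 6.21 CPM. In the E11.5 AGM negative pool, 24.7% of thinned wells had a Flrt2 count: 29.8% of the 131 wells with 3 or more mesenchymal markers (22.1% to 38.4%) and 19.2% of the other 120 (12.6% to 27.4%). A single well gave 17 of the 56 counts in the E11.5 YS positive pool.

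Slc7a7 (chromosome 14, 54369442-54417780, minus strand), a light chain of a cationic amino acid transporter that macrophages also use, was counted 4 to 39 times per pool. It stood at 15.3 CPM (8.14 to 26.2) and 31.8 CPM (22.6 to 43.4) in the E11.5 AGM and YS positive pools, against 6.40 and 2.45 CPM in the negative pools. At E9.5 it was 5.78 CPM (2.89 to 10.4) in the AGM and 18.8 CPM (12.3 to 27.6) in the YS positive pool, against 2.35 and 1.29 CPM. It was the only member for which the YS positive pool lay at least 2-fold above the AGM positive pool at both stages. Slc7a7 shares 232 of 3315 exon bases with Oxa1l on the other strand.

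**Figure D1:**
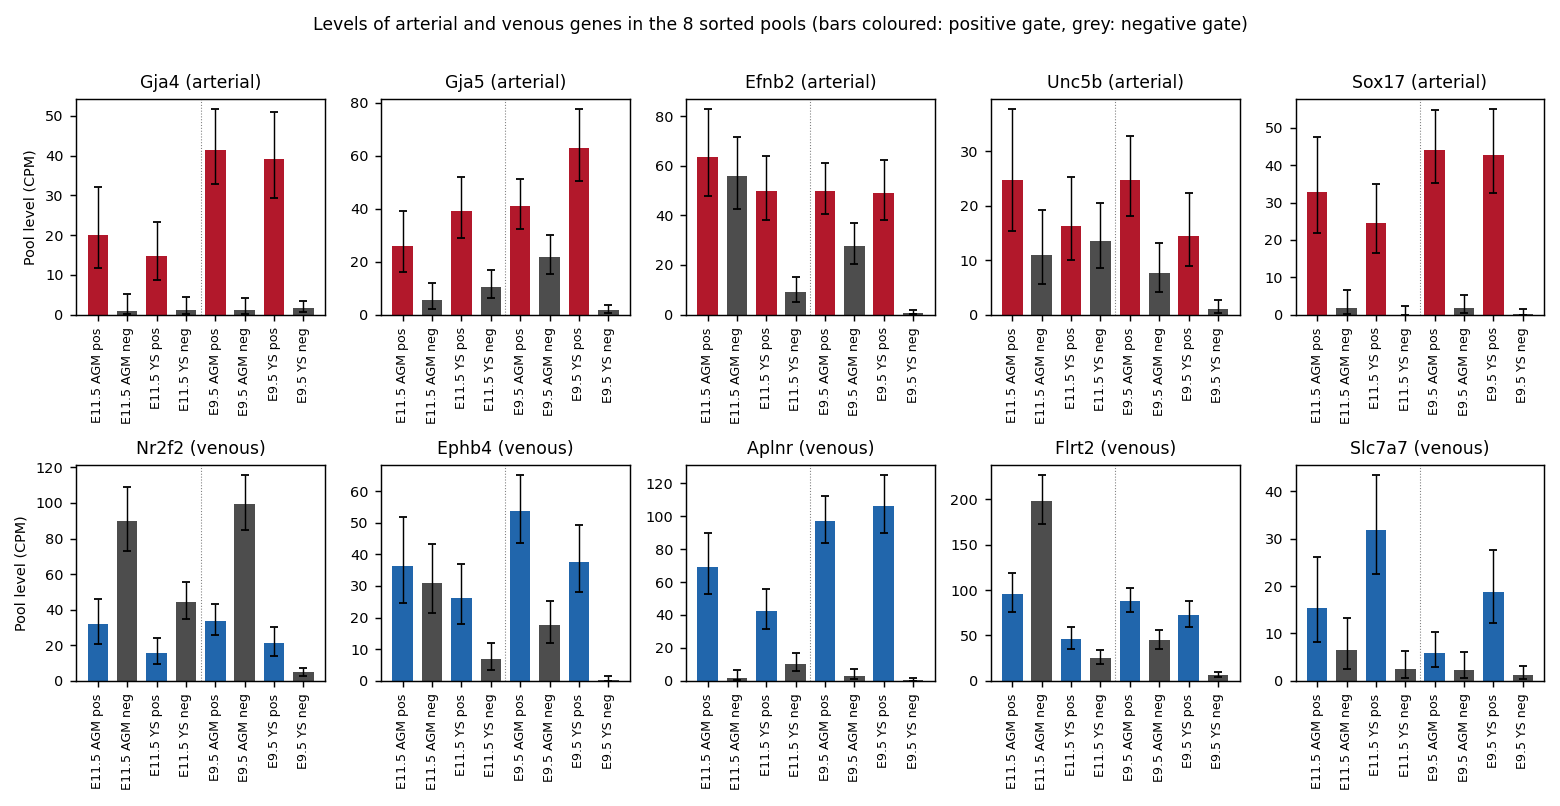
Pool levels (CPM) of the 10 genes; each panel has its own axis, coloured bars are positive and grey bars negative pools, and error bars are exact 95% Poisson intervals of the pool count. Gja4 and Sox17 stay at or below 1.83 CPM in all negative pools and Aplnr reaches 10.4 CPM in the E11.5 yolk sac, while Nr2f2 and Flrt2 reach 99.4 and 198 CPM in AGM negative pools.

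Single counts in wells were also read in 40 E11.5 YS negative wells with at least 50% haemoglobin counts (median 5559 counts). Of these, 36 also held 3 or more mesenchymal markers and none held 3 endothelial markers, so they are no blank for genes of mesenchyme. After thinning, 4 of the 40 (10.0%, 2.79% to 23.7%) had an Nr2f2 count, 1 each had a Gja5, Efnb2 or Aplnr count, and none had one of the other 6 genes, which with 40 wells has an upper 95% bound of 8.81%. In the E9.5 YS negative pool, the deepest, venous counts were found in 2.96% and arterial counts in 0.329% of 304 thinned wells in 1 draw. Averaged over all draws the shares were 2.49% and 1.05%.

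The comparison of the gates shows which of these genes the VE-cadherin sort enriched. Members were counted as apart where the ratio was at least 2-fold and the pair held 20 or more counts. In the E11.5 AGM, 5 of 9 such members were higher in the positive pool (Gja5, Unc5b, Sox17, Aplnr and Slc7a7) and 2 were lower (Nr2f2 and Flrt2), beside 6.65% of all genes higher and 40% lower. The Slc7a7 interval there spanned 0 (1.26, -0.18 to 2.82), and Gja4, with 18 counts, was 21.9-fold higher (4.45, 1.78 to 9.84). In the E11.5 yolk sac, 7 of 10 were higher (all but Unc5b, Nr2f2 and Flrt2) and Nr2f2 was lower, beside 9.3% of all genes higher and 13.8% lower. In the E9.5 AGM, 5 of 9 were higher (Gja4, Unc5b, Sox17, Ephb4 and Aplnr) and Nr2f2 was lower, beside 7.22% of all genes higher and 21.3% lower. In the E9.5 yolk sac all 10 were higher, beside 41.7% of all genes higher and 2.53% lower.

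Aplnr stood 37.9-fold above its negative pool in the E11.5 AGM (log2 ratio 5.25, 3.33 to 8.33), 4.06-fold in the E11.5 YS (2.02, 1.21 to 2.91), 33.1-fold in the E9.5 AGM (5.05, 3.798 to 6.69) and 205-fold in the E9.5 YS (7.68, 5.80 to 10.7). Sox17 was 18.0-fold higher in the E11.5 AGM positive pool (4.17, 2.18 to 7.29) and 25.0-fold higher in that of the E9.5 AGM (4.65, 3.05 to 6.95). In the E11.5 YS, with no negative count, Sox17 was 13.3-fold higher (3.73) when 3 counts were taken as the floor of that pool. The exact lower limit of the log2 ratio there was 3.34, with no upper limit.

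Nr2f2 was lower in the positive gate by a log2 ratio of -1.50 (-2.17 to -0.87) in the E11.5 AGM, -1.51 (-2.32 to -0.77) in the E11.5 YS, and -1.56 (-2.002 to -1.14) in the E9.5 AGM. It was higher in the E9.5 YS by 2.17 (1.27 to 3.11), where the median ratio of all genes was also above 0, at 0.82. The medians of all genes in the other pairs were -0.80 in the E11.5 AGM, -0.13 in the E11.5 YS and -0.39 in the E9.5 AGM. With TMM or DESeq2 scaling, which bring those medians to between -0.20 and 0.06, Nr2f2 kept its direction in all 4 pairs but came within 2-fold in the E11.5 AGM (-0.86 and -0.79). Its E11.5 YS ratio was within 2-fold with the strict well filter of 1000 or more genes and at most 10% of mitochondrial counts (-0.40), and in wells with 3 or more endothelial markers on the positive side (-0.95). Flrt2 was likewise at -1.06 (-1.45 to -0.68) in the E11.5 AGM, and at -0.42 and -0.36 with those scalings.

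Markers of other cells also differed between the gates. Mesenchymal markers (10 genes) summed to 375 and 777 CPM in the E11.5 AGM and YS positive pools, against 1997 and 8671 CPM in the negative pools. At E9.5 they summed to 27.9 and 70.9 CPM, against 469 and 852 CPM. Neural markers (10 genes) summed to 225.8 and 147.5 CPM in the E11.5 AGM and YS positive pools, against 527.6 and 385.2 CPM in the negative pools, and to 182.4 and 117.2 CPM at E9.5, against 310.1 and 19.7 CPM. Macrophage markers (12 genes) were higher on the positive side in 3 pairs: they summed to 1238 and 1041 CPM in the E11.5 AGM and YS positive pools, against 69.5 and 120.8 CPM, and at E9.5 to 45.7 and 652 CPM, against 59.4 and 53.1 CPM. Visceral endoderm markers (10 genes) summed to 407 and 8341 CPM at E11.5, against 286 and 3348 CPM, and to 9.46 and 99.1 CPM at E9.5, against 19.4 and 339 CPM. Their part in the gate ratios was not tested beyond the shares of wells given above.

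**Figure D2:**
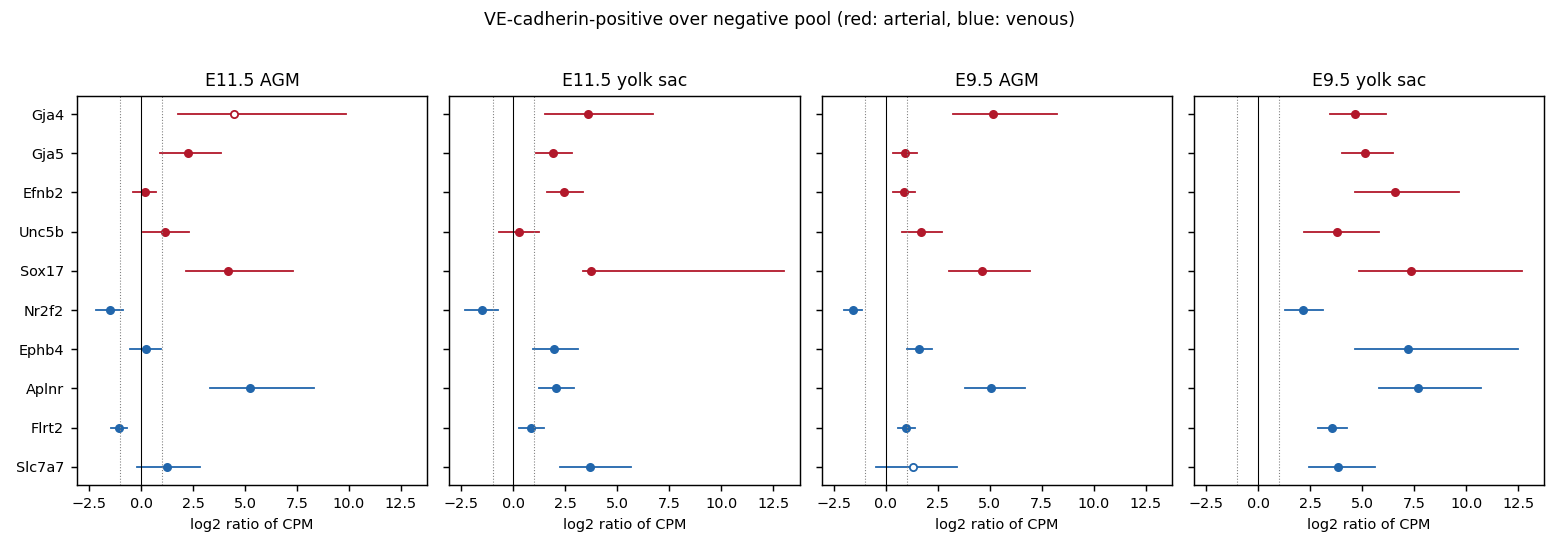
Log2 ratio of CPM, positive over negative pool, for each gene in the 4 pairs; lines are exact 95% intervals from the counts, dotted lines mark 2-fold, and open points have under 20 counts. The Sox17 point in the E11.5 yolk sac uses a floor of 3 counts, and its interval has no upper limit. Nr2f2 lies left of 0 in 3 pairs, and all 10 genes lie right of 0 in the E9.5 yolk sac.

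Between the tissues the positive gate was compared, first for the arterial genes. At E11.5 none of the 5 was 2-fold apart between AGM and YS, with ratios between -0.60 (Gja5) and 0.60 (Unc5b), and at E9.5 none was, with ratios between -0.62 (Gja5) and 0.77 (Unc5b). All 5 intervals at E11.5 spanned 0. Of the E9.5 intervals only that of Gja5 did not (-1.08 to -0.16).

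Among the venous genes, 2 were higher in the AGM at E11.5, beside 11% of all genes higher and 4.48% lower: Nr2f2 by 1.04 (0.14 to 1.97) and Flrt2 by 1.06 (0.55 to 1.58). Neither was 2-fold apart with TMM scaling (0.78 for Nr2f2 and 0.81 for Flrt2) or DESeq2 size factors (0.79 and 0.82). When only wells with 1000 or more genes and no more than 10% of mitochondrial counts were used, they stood at -0.07 and 0.06. In endothelial wells, those with 3 or more of the 12 markers, they stood at 1.04 and 0.77. At E9.5 they were at 0.68 (0.03 to 1.37) and 0.29 (-0.08 to 0.66), and no member was 2-fold higher in the AGM, beside 3.58% of all genes higher and 9.35% lower. Slc7a7 was lower in the AGM at both stages, by -1.06 (-2.09 to -0.12) at E11.5 and by -1.70 (-2.87 to -0.63) at E9.5, and stayed at least 2-fold lower with TMM and DESeq2 scaling (-1.31 and -1.30 at E11.5, -1.56 and -1.54 at E9.5). In endothelial wells the Slc7a7 difference was -1.94 at E11.5 and -1.73 at E9.5.

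Markers of other cells differed between the same pools. The macrophage sums were close at E11.5 (1238 CPM in the AGM and 1041 CPM in the YS) and lower in the AGM at E9.5 (45.7 and 652 CPM), where C1qb, C1qc, Adgre1 and Cd68 were at 0. The visceral endoderm sums were lower in the AGM at both stages. A Slc7a7 count was found in 4 of 36 thinned E11.5 YS positive wells with 3 or more macrophage markers (11.1%, 3.11% to 26.1%) and in 17 of the other 299 (5.69%, 3.35% to 8.95%). Their part in the tissue difference was not tested further.

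Across the stages, again in the positive gate, most members were lower at E11.5 than at E9.5 in the pool sums, as most genes were: the median of all genes was -0.33 in the AGM and -0.70 in the YS. In the AGM, Gja4 was 2-fold lower at E11.5 (-1.05, -1.90 to -0.29) and Slc7a7 2-fold higher (1.40, 0.13 to 2.71), beside 23.5% of all genes lower and 9.42% higher. In the YS, Gja4 (-1.41, -2.27 to -0.62) and Aplnr (-1.33, -1.81 to -0.86) were lower and none was higher, beside 35.8% of all genes lower and 5.17% higher. For Efnb2 the AGM ratio was 0.35 (-0.16 to 0.84) and the YS ratio 0.02 (-0.51 to 0.54), and with TMM or DESeq2 scaling the ratios were 0.44 and 0.61 in the AGM and 0.51 and 0.69 in the YS.

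These stage ratios turned on the scale. Members below 0 numbered 7 of 10 in each tissue, but 5 in the AGM and 4 in the YS with DESeq2 size factors, and 3 and 4 in endothelial wells. With TMM or DESeq2 scaling Gja4 remained lower in both tissues (-0.96 and -0.79 in the AGM, -0.91 and -0.74 in the YS) but within 2-fold, and so did Aplnr in the YS (-0.83 and -0.66). In the endothelial wells, which number 137 and 136 at E11.5 and 269 and 286 at E9.5, Efnb2 stood at 105.5 CPM (77.0 to 141) in AGM and 99.5 CPM (73.3 to 132) in YS at E11.5, against 51.7 CPM (41.7 to 63.5) and 52.0 CPM (40.2 to 66.2) at E9.5. Aplnr in those wells was at 103 CPM (75.0 to 139) and 93.2 CPM (68.0 to 125) at E11.5, against 102 CPM (87.9 to 118) and 113 CPM (95.0 to 133) at E9.5. Endothelial wells were chosen without thinning, and the median well held 2532 (AGM) and 3008 (YS) counts at E11.5, against 5832 and 3961 at E9.5; the part of that depth gap was not tested. Markers of other cells also moved with stage: visceral endoderm markers summed to 407 CPM in the AGM and 8341 CPM in the YS at E11.5, against 9.46 and 99.1 CPM at E9.5, where no thinned well held 3 of them. Macrophage and mesenchymal markers moved too, as given for the gates, and their part in the stage ratios was not tested.

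**Figure D3:**
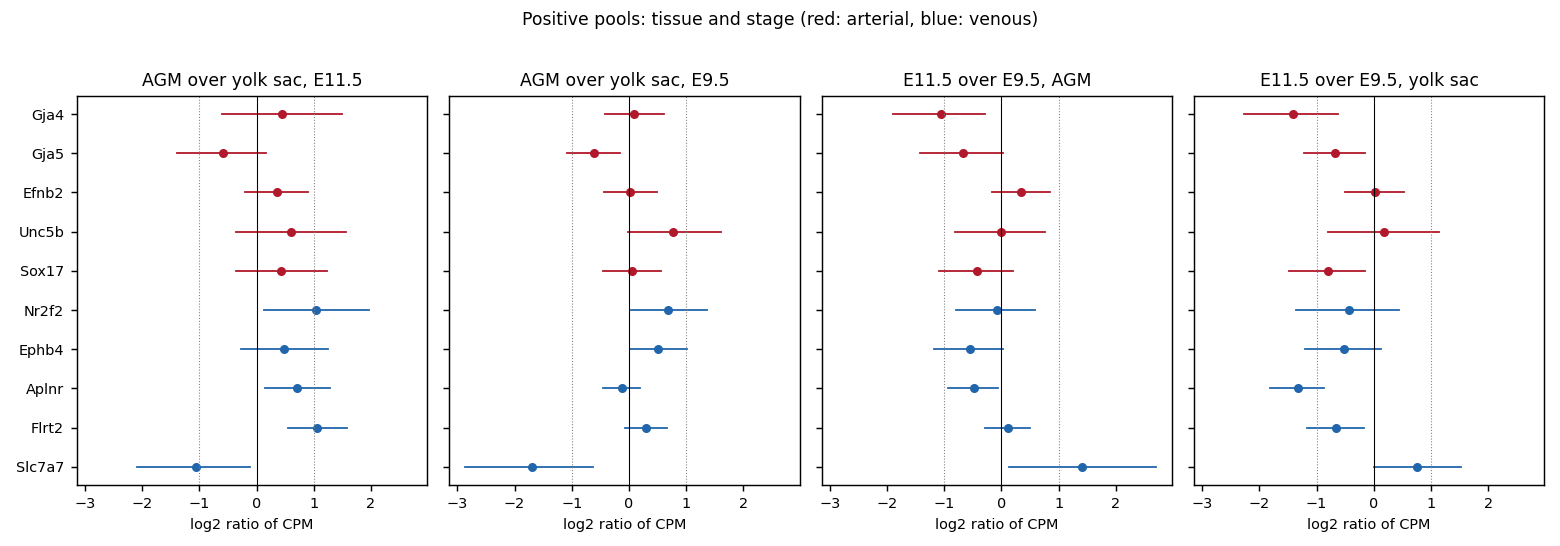
Log2 ratios of CPM between positive pools, AGM over yolk sac at each stage and E11.5 over E9.5 in each tissue, with exact 95% intervals from the counts and dotted lines at 2-fold. Slc7a7 alone lies beyond the 2-fold line on the yolk sac side at E11.5 and at E9.5. Gja4 lies beyond it on the E9.5 side in AGM and yolk sac, and Aplnr does so in the yolk sac only.

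The lists were also set against the endothelial RNA of the same pool, a measure chosen after the pool ratios had been seen. Arterial counts numbered 9.66 per 100 endothelial marker counts (8.07 to 11.48) in the E11.5 AGM and 11.9 (10.1 to 13.9) in the E11.5 YS positive pool, and 11.2 (10.0 to 12.4) and 9.72 (8.59 to 10.98) at E9.5. Venous counts numbered 14.4 (12.4 to 16.6) and 13.3 (11.4 to 15.4) at E11.5, and 15.4 (14.1 to 16.9) and 11.95 (10.7 to 13.4) at E9.5. Within the arterial list all 4 intervals overlapped. Within the venous list the E9.5 AGM and YS intervals were apart and all others overlapped.

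Whether arterial and venous genes share wells was asked next. Without thinning, 39 of 81 wells with an arterial count in the E11.5 AGM positive pool also had a venous count (48.1%), as had 44 of 105 (41.9%) in the E11.5 YS, 128 of 182 (70.3%) in the E9.5 AGM and 92 of 158 (58.2%) in the E9.5 YS. Such wells were therefore common in every positive pool. Wells without an arterial count held a venous count in 38.3%, 29.0%, 65.0% and 53.3% of cases in the same order. Deeper wells hold more of both lists, so the shares were also taken at 2000 counts per well.

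At that depth a venous count was found, in 1 random draw, in 37.8% of wells with and 28.5% of wells without an arterial count in the E11.5 AGM, a difference of 9.29 points (-6.62 to 26.4). In the E11.5 YS the difference was 9.41 points (-1.996 to 21.97), -16.0 points (-27.1 to -3.73) at E9.5 in the AGM, and -11.04 points at E9.5 in the YS (-22.3 to 1.20). The E9.5 values did not hold up: another draw gave -2.70 points in the AGM and -1.67 points in the YS, and the unthinned wells gave 5.37 and 4.93 points. Thinning to 1000 counts gave 0.929 points in the AGM and -8.99 points in the YS. Averaged over all possible draws, by exact calculation, the differences were 6.80 and 10.4 points at E11.5 (AGM and YS) and -1.60 and -2.36 points at E9.5. With that average, wells with and without an arterial count held a venous one in 35.9% and 37.5% of cases at E9.5 in the AGM, and in 34.8% and 37.1% in the YS. No interval was computed for the averages, so whether wells differ at E9.5 was not tested at this depth. The E11.5 AGM difference of the single draw was -7.40 points when Efnb2 was left out, and that of the YS was -4.38 points in endothelial wells without Nr2f2 and Flrt2. In endothelial wells with all members, the E11.5 differences were 8.89 points in the AGM and -0.168 points in the YS in the single draw. Over all draws they were 9.08 and 5.48 points. The single draw used 87 endothelial wells in each pool and the average 109 and 129, so these values differ in wells as well as in draws. In all wells of the negative pools the average over draws was 2.38 and 9.11 points at E11.5 (AGM and YS), and 3.97 and 1.55 points at E9.5. Without thinning the negative pools gave 5.38 and 18.3 points at E11.5, and 17.7 and 9.17 points at E9.5.

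**Figure D4:**
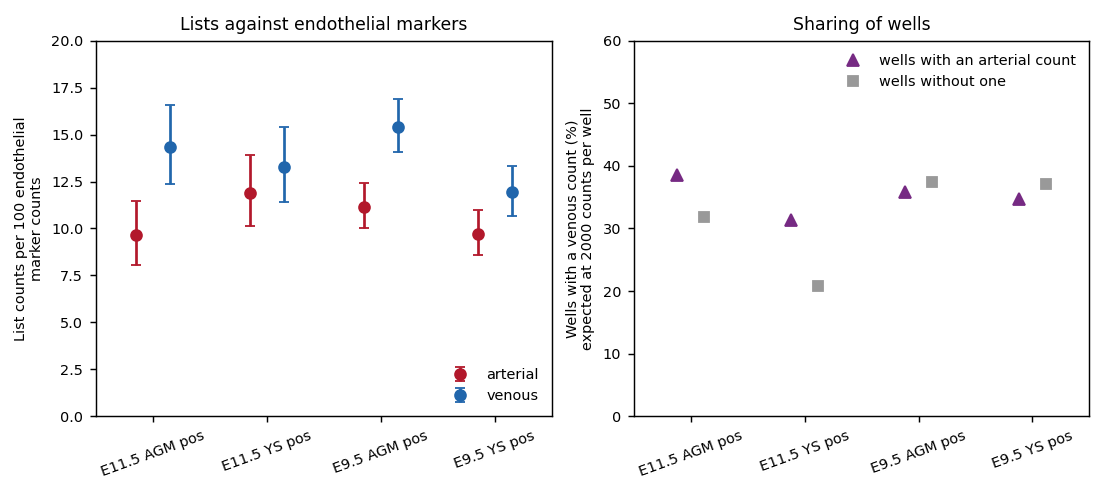
Left, arterial and venous list counts per 100 counts of 12 endothelial markers in each positive pool, with exact 95% intervals; the lists differ in their genes and are not to be compared with each other. Right, share of wells with a venous count among wells with and without an arterial count, averaged over all draws of 2000 counts per well, 38.6% and 31.8% in the E11.5 AGM and 34.8% and 37.1% in the E9.5 yolk sac.

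Sharing was also taken gene by gene. For each gene in each positive pool, the share of wells with another member of the same list was compared between wells with and without that gene, averaged over all draws. It was higher in wells with the gene in 39 of 40 such comparisons, with a median difference of 11.01 points (-1.91 to 37.8). For members of the other list it was higher in 22 of 40, with a median of 0.917 points (-13.7 to 24.4). In endothelial wells alone the counts were 37 of 40 and 19 of 40, with medians of 11.6 and -0.449 points. In the single draw it was higher in 36 of 40 for the same list and 16 of 40 for the other, and the intervals of the 2 shares were apart in 5 and 1 of these. Without thinning the counts were 40 of 40 and 31 of 40, with medians of 17.9 and 6.83 points and intervals apart in 9 and 3.

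The same-list median was above that of the other list in 3 of the 4 pools with all wells, and in each pool in endothelial wells alone. In the E9.5 AGM the median was 8.07 points for the same list and -1.11 for the other, and in the E9.5 YS 12.8 and -1.64 points. At E11.5 the medians were 18.96 and 5.86 points in the AGM, and 8.81 and 10.8 points in the YS, where the lists did not part with all wells. In endothelial wells of the E11.5 YS they were 7.64 points for the same list and 4.45 points for the other. Differences above 0 there numbered 8 for the same list and 9 for the other, of 10 each. Gja4 wells of the E9.5 AGM held another arterial gene in 38.3% of cases, against 25.1% of wells without Gja4, and a venous gene in 34.9% against 37.2%. Nr2f2 wells of the E9.5 YS held another venous gene in 54.4% of cases, against 34.1% of wells without it, and an arterial gene in 34.5% against 29.6%. Each pair of genes enters these counts from both sides, wells are not replicates, and the expected wells behind a gene number from 3.15 (Slc7a7, E9.5 AGM) to 56.6 (Aplnr, E9.5 YS).

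**Figure D5:**
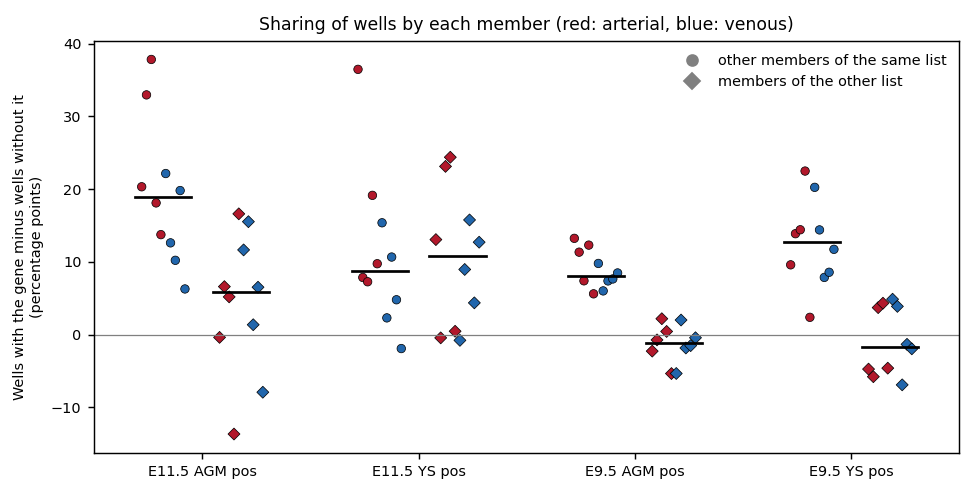
For each gene and positive pool, the share of wells with another member of its own list (circles) or with a member of the other list (diamonds), in wells with the gene minus wells without it, averaged over all draws of 2000 counts; bars are medians. At E9.5 all 10 circles lie above 0 in both tissues, while diamonds scatter around it with medians of -1.11 and -1.64 points.

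Other genes of the programmes were read from lists of 18 arterial, 8 venous and 16 partner genes, of which 17, 8 and 15 were in both tables. Of the arterial programme 3 of 10 countable genes were higher and 3 lower in the positive pool of the E11.5 AGM, 4 of 8 and 1 in the E11.5 YS, 7 of 15 and 3 in the E9.5 AGM, and 10 of 10 and 0 in the E9.5 YS. The shares of all genes higher and lower in the same 4 pairs were 6.65% and 40%, 9.3% and 13.8%, 7.22% and 21.3%, and 41.7% and 2.53%. These counts depend on the scale. With TMM or DESeq2 scaling, Hes1 (0.84 and 0.66) and Rbpj (0.27 and 0.09) came within 2-fold in the E9.5 YS. The other countable arterial genes stayed 2-fold higher there. In the E11.5 AGM, Jag1 (1.39 and 1.46) and Nrp1 (1.26 and 1.33) rose above 2-fold with those scalings. The Notch receptor Notch4 was higher in all 4 pairs, at 27.1 and 22 CPM in the E11.5 AGM and YS positive pools, against 6.40 and 1.23 CPM in the negative, and at 35.2 and 25.3 CPM against 4.12 and 0.518 CPM at E9.5. The Notch target Hes1 went the other way in both E11.5 tissues, at 27.1 and 50.5 CPM in the positive pools, against 85.0 and 164 CPM. The Notch ligand Dll4 had 23 counts in the E9.5 AGM positive pool and none in the negative one. Of the venous programme, 4 of 7 countable genes were higher and 2 lower in the positive pool of each E11.5 pair. In the E9.5 AGM they were 4 of 7 and 1, and in the E9.5 YS 5 of 6 and 0. Tek, Flt4 and Emcn were higher in all 4 pairs and Vwf in 3 of them. Ephb2 was lower in the E11.5 AGM, the E11.5 YS and the E9.5 AGM (-3.72, -2.13 and -4.97). Bmp4 was lower in the E11.5 AGM and YS (-1.70 and -2.89) and higher in the E9.5 YS (1.84).

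Between tissues, Emcn and Vwf, 2 of 6 countable genes of the venous programme, lay above 2-fold in the AGM at E9.5 (1.62, 1.27 to 1.98, and 1.24, 0.51 to 2.02), beside 3.58% of all genes. Tek was lower there (-0.70, -0.91 to -0.50). The intervals of Nrp2 (-0.16), Flt4 (0.24) and Bmp4 (0.10) spanned 0, and the list median was 0.17. At E11.5 Emcn and Vwf were at 1.05 (0.58 to 1.54) and 1.05 (0.55 to 1.56), beside 11% of all genes 2-fold higher and an all-gene median of 0.25. They came within 2-fold with TMM (0.80 and 0.79) or DESeq2 scaling (0.81 and 0.80). Emcn, encoding the sialomucin endomucin of veins and capillaries, stood at 108 CPM in the AGM and 52.2 CPM in the YS at E11.5, and at 184.5 CPM in the AGM and 60.02 CPM in the YS at E9.5. Vwf, encoding von Willebrand factor of endothelium and of the platelet lineage, was at 97.6 and 47.3 CPM at E11.5 and at 35.7 and 15.2 CPM at E9.5, and was 2-fold higher at E11.5 than at E9.5 in both tissues (1.45 and 1.64). Megakaryocyte markers (6 genes) moved the same way, at 142 and 249 CPM in the E11.5 AGM and YS positive pools, against 19.97 and 95.5 CPM at E9.5, and their part in the Vwf ratios was not tested. In the AGM the Notch target Hey1 was lower at E11.5, with 4 counts (4.70 CPM), against 31 counts (16.3 CPM) at E9.5, a ratio of -1.79 (-3.76 to -0.29). The interval of Hey2 spanned 0 (-1.58, -3.97 to 0.18). Of the 16 countable genes of the arterial programme in that comparison, 3 were 2-fold lower (Hey1, Hey2 and Foxc1) and 2 higher (Jag1 and Bmx), beside 23.5% of all genes lower and 9.42% higher. Among the partners, 2 of 11 countable genes were higher and 8 lower in the positive pool of the E11.5 AGM, beside 6.65% and 40% of all genes. In the E9.5 AGM they were 3 of 12 and 8, beside 7.22% and 21.3% of all genes. The EphB receptor Ephb2, the netrin Ntn1, the netrin receptor Unc5c and the nuclear receptor Nr2f1 were among those lower at both stages. Efna1 (1.99 at E11.5 and 5.24 at E9.5) and Robo4 (3.27 and 3.06) were higher at both. Nr2f1 had 2 counts in each AGM positive pool, against 55 counts (50.3 CPM) at E11.5 and 109 counts (64.1 CPM) at E9.5 in the negative ones. Apln, the ligand of Aplnr, reached 9.46 CPM in the E9.5 AGM positive pool and at most 4.70 CPM in any other.

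Over the 8 pools, the members fell into patterns that crossed the lists; correlations are of log2(CPM + 10) over pools that share chips and depth, as a description. The closest pairs were Gja4 with Sox17 (Pearson r = 0.978), Sox17 with Aplnr (0.972), Gja4 with Aplnr (0.971) and Efnb2 with Ephb4 (0.956). The lowest were Nr2f2 with Gja4 (-0.311), Slc7a7 (-0.28), Sox17 (-0.273) and Aplnr (-0.264). Among 8161 genes with at least 100 counts, the genes most like Sox17 were Cdh5 (0.995) and Esam (0.993), and those most like Gja4 were Cldn5 (0.994) and Thsd1 (0.993). The most like Aplnr were Map4k2 (0.996) and Eng (0.987), and the most like Nr2f2 were Arhgap5 (0.989) and Sufu (0.987).

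For the rest, the leading genes were Snx9 (0.945) and Pced1b (0.942) for Gja5, Zfp407 (0.987) and Slk (0.980) for Efnb2, and Diaph2 (0.972) and Man1c1 (0.964) for Unc5b. They were Ssh2 (0.977) and Ppfibp1 (0.975) for Ephb4, Asap2 (0.986) and Sec24b (0.984) for Flrt2, and Snx2 (0.986) and Tpp1 (0.974) for Slc7a7. The summed arterial list was most like Ttc7b, Prex2, Tjp1, Foxo1 and Rgs3 (0.979 to 0.987). The summed venous list was most like Sptan1, Mpzl1, Armcx4, Rasa1 and Ppfibp1 (0.981 to 0.990).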

How the data were processed

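Single cells of 8 sorted pools on 2 ICELL8 chips were analysed, 1 chip per stage. The authors deposited 1 matrix of raw counts (genes by wells) per chip and a list that names the pool of every well, a label with no unit. Per the submitters' processing notes, the authors used FastQC, cutadapt and STAR with mm10 (GRCm38); versions, counting tool, annotation, strand and whether identifiers marked single molecules are not given in the sources used here, so intervals and floors cover counting error only. The chips share 473 barcodes as strings.

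Wells with at least 500 genes were kept, counts were summed per pool and scaled to CPM, with a ribosomal RNA row (9.44% to 19.3% of counts) and haemoglobin left in the totals. Ratios have exact 95% conditional binomial intervals, shares have Clopper-Pearson intervals, and a pool without a count was given 3 counts as its floor. Scrublet in scanpy 1.11.5 marked 9 E11.5 wells (0.661%) and 1 E9.5 well (0.0779%); doublets had been gated out at the sort, and the wells were kept. Alternatives changed the well filter, totals, scaling (edgeR 4.0.16 TMM, DESeq2 1.42.0 size factors), weights, thinning, thresholds and wells used. The ratio step was checked on simulated data. Python 3.11.15, scipy 1.17.1 and R 4.3.3 were used. Gene positions are from GENCODE M21.

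The 10 members and all lists were chosen with earlier results of these data known. All members are named whatever their values; genes of like pattern are the 5 nearest to each list sum and the 2 nearest to each member among named genes with at least 100 counts, leaving out mitochondrial, ribosomal protein, predicted and Rik genes. Other programme genes named were picked from their lists after their values were seen. The control wells entered no comparison.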

Additional observations from a re-analysis of the deposited data

Results flagged for a closer look

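Some ratios took opposite directions in pairs that share a contrast; these differences were not tested, since each pool is 1 sample. The log2 gate ratio of Flrt2 was -1.06 in the E11.5 AGM, against 0.98 in the E9.5 AGM, a difference of -2.04, and against 0.86 in the E11.5 yolk sac, a difference of -1.92. The gate ratio of Nr2f2 was -1.51 in the E11.5 yolk sac, against 2.17 in the E9.5 yolk sac, a difference of -3.68, and the E9.5 AGM had -1.56, against 2.17 in the E9.5 yolk sac, a difference of -3.73. The E9.5 yolk sac negative pool, with 38.1% haemoglobin counts in its median well, enters both Nr2f2 differences. The E11.5 yolk sac negative pool had 31.5%. Without haemoglobin and mitochondrial genes in the totals, the lowest E9.5 yolk sac gate ratio of the 10 genes was 1.79. The part of haemoglobin was not tested.

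Counts of members were also seen outside the sorted pools. The 46 positive control wells of the E9.5 chip, which the protocol loads with embryonic stem cell RNA, held 6 counts of Unc5b in 5 wells and 8 counts of Slc7a7 in 5 wells. The negative control wells also held single counts: 1 each of Sox17, Nr2f2 and Flrt2 in the 47 wells of the E11.5 chip, of 17289 counts, and 1 each of Efnb2 and Nr2f2 in the 48 wells of the E9.5 chip, of 6452 counts.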

How the results depend on the processing

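No paired analysis was possible because each group is 1 sample. Of 304 alternative values for counts of members and for sharing, 234 stayed near the reported value (counts within 1.5 times), as did 1067 of 1120 for single genes. The sign differed from the reported one in 8 of 80 sharing values and in 42 of the 1120 gene values: in 17 and 13 between stages (AGM, yolk sac), 6 and 6 between tissues (E11.5, E9.5) and 0 between gates. Members higher in the positive gate of the E11.5 AGM (5) numbered 1 with the strict well filter or at least 50 counts and 3 in endothelial wells; those lower (2) numbered 1 without haemoglobin and mitochondrial totals or with equal weight per well, and 0 with TMM, DESeq2 factors, endothelial wells or totals without ribosomal RNA. In the E11.5 yolk sac gate, lower (1) became 0 with the strict filter or endothelial wells and higher (7) became 3 at 50 counts. In the E9.5 AGM gate, higher (5) became 8 under the totals and scalings above, at 1.5-fold or by intervals. Between tissues at E11.5, higher (2) became 0 (strict filter, totals, scalings), 1 (no well filter, endothelial wells, doublets out, 50 counts) or 4 (1.5-fold), and lower (1) became 2 at 1.5-fold. Nr2f2 stood at -0.0691 with the strict filter. At E9.5, lower (1) became 0 at 50 counts, and 1.5-fold or intervals gave 2 higher and 2 lower. Between stages in the AGM, higher (1) became 0 (strict filter, 50 counts) and lower (1) became 0 (totals, scalings, endothelial wells) or 2 (1.5-fold, intervals). In the yolk sac, higher (0) became 1 under those and the strict filter, and lower (2) became 0 (strict filter, scalings, endothelial wells, no ribosomal RNA), 1 (no haemoglobin) or 5 (1.5-fold, intervals).

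Sharing in the E11.5 AGM (9.29 points) became 30.0 with the strict filter and -7.40 without Efnb2. In the E11.5 yolk sac (9.41) it became 24.8 and, in endothelial wells without Nr2f2 and Flrt2, -4.38. In the E9.5 AGM (-16.0) it became 5.37 unthinned, 0.929 at 1000 counts, 0.251 at 2 or more counts, -2.70 with another draw, and -1.60 or, in endothelial wells, -2.48 over all draws. In the E9.5 yolk sac (-11.0) it became 4.93 unthinned. The ribosomal RNA totals, the average over draws, the omission of Nr2f2 with Flrt2, the scaled ratios of other programme genes and counts per endothelial marker count were chosen after seeing the data. The cause of each change was not tested. The counts per gene and pool, often below 30, limit what could be seen.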
